A study of Mus musculus with 24 samples.

Results

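The step from the morula to the blastocyst was described in intact mouse embryos, by comparing 3 control blastocysts with 5 control morulae, which are 8 of the 24 single-embryo libraries of the series. The libraries were chosen by their labels alone, with no measured value. All embryos were of the ICR strain, came from in vitro fertilization and were cultured at 37 °C under 6% CO2 and 5% O2. The series was made to follow embryos grown from blastomeres that had been parted at the late 2-cell stage, and the embryos described here are its undivided controls, cultured alongside. Each was lysed whole and alone, and Smart-seq2 was used, a method that primes cDNA on the poly(A) tail and copies the transcript in full length before amplification. The labels give stage and replicate number but no hours of culture, litter, sex or library batch, and they do not state whether the embryos came from separate matings, so p-values measure only the spread between embryos of this series. In the gene tests that spread was estimated over all 5 groups of the series, 8-cell and split embryos included.

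In the morula the cells have compacted and outer cells have become polarised. In the blastocyst an outer epithelium, the trophectoderm, moves sodium and water into a cavity. The inner cell mass begins to divide into epiblast, which will form the fetus, and primitive endoderm, which will form yolk sac tissue. YAP and TEAD4 acting in outer cells switch on Cdx2 and Gata3, while Nanog and Gata6 mark the epiblast and primitive endoderm programmes inside. Because whole embryos were sequenced, fewer cells of a type and less RNA per cell cannot be told apart in any value below.

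Counted reads came to 13888842 to 19014808 per morula and 11316911 to 12653788 per blastocyst. Of 15875 genes tested with edgeR's quasi-likelihood test, 496 (3.12%) were higher and 1184 (7.46%) lower in blastocysts at a Benjamini-Hochberg adjusted p under 0.05, together 10.6%, and the median log2 change of all tested genes was 0.11. The median fold of the genes that rose was 3.44 and that of the genes that fell 2.55. Changes of at least 4-fold were made up of 212 rises and 259 falls, and those of at least 16-fold of 116 rises and 54 falls. Levels in CPM are counts scaled by the library total times a normalisation factor. In this unit the summed level of the genes that fell decreased by 321143 CPM and that of the genes that rose gained 44626 CPM. The factor averaged 0.913 in morulae and 1.22 in blastocysts, so all genes of an embryo sum to fewer CPM in blastocysts. A net loss over all genes is therefore set by the scaling, and these sums cannot show which direction outweighed the other. All 3 blastocysts lay outside the range of the 5 morulae for 466 of the 496 rises and 1132 of the 1184 falls, while over all 15875 tested genes they lay above in 2103 and below in 1804.

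The share of rises depended on the scaling. The normalisation factors were 0.883 to 0.937 in morulae and 1.17 to 1.31 in blastocysts, with no overlap, and scaling by library totals alone gave 1212 rises and 677 falls (64.2% rises against 29.5%) and moved the median of all genes to 0.53. On log2(TPM + 1), from the authors' length-scaled values, 2684 genes were higher and 836 lower (76.3% rises, median 0.37), and limma-voom gave 805 and 816 (49.7%, median 0.32). Every gene called both in the edgeR fit and in one of these settings kept its direction. Each embryo was also left out in turn. The count of rises was 248, 291 and 242 without blastocyst 1, 2 and 3, and the total was 1083 without blastocyst 1 and 1095 without blastocyst 3. Levels also moved with transcript length. By sixths of exon length the median log2 change went from -0.22 in the shortest (36 rises, 182 falls) to 0.54 in the longest (186 rises, 92 falls), and the longest-minus-shortest contrast was -0.41 to -0.09 in the morulae and 0.40 to 0.63 in the blastocysts, with no overlap. With this trend fitted in each embryo, 504 genes were higher and 975 lower. The part of transcript length in any one result below was not tested beyond this refit, whose counts are given for several gene lists.

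**Figure D1:**
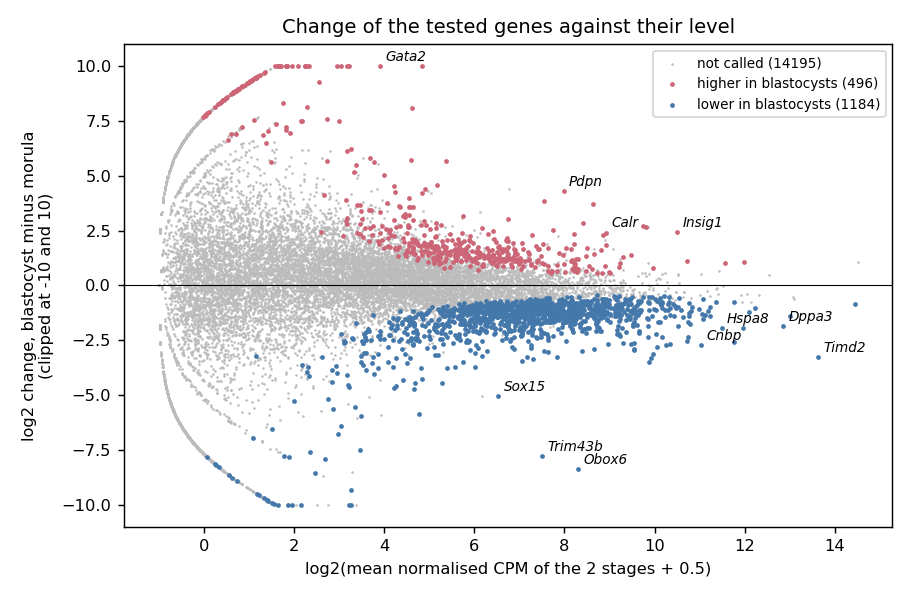
Log2 change from morula to blastocyst (y axis, clipped at 10 in either direction) against log2 of the mean normalised CPM of the 2 stages plus 0.5 (x axis), 1 point per tested gene. The 496 genes called higher lie mostly at low and middle levels, while the 1184 called lower reach the most abundant transcripts, such as Timd2 and Dppa3.

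**Figure D2:**
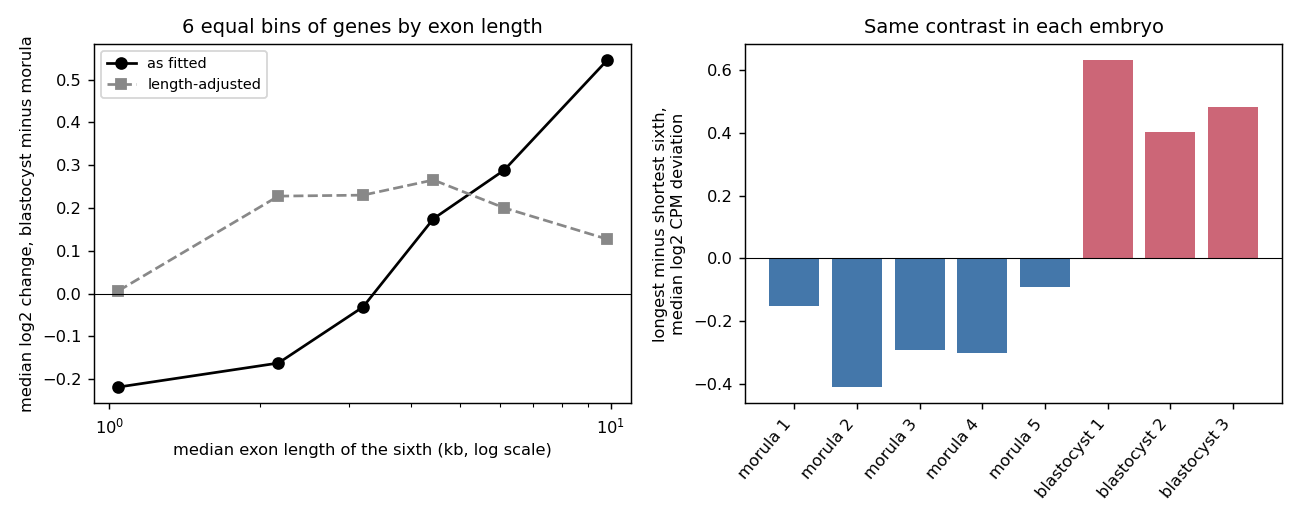
Left, median log2 change in 6 bins of 2596 genes against the median exon length of the bin (kb, log axis), as fitted and with the length trend of each embryo removed. Right, the median log2 CPM deviation of the longest sixth minus that of the shortest in each embryo, which is below 0 in all 5 morulae and above 0 in all 3 blastocysts.

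At an equal depth of 11316911 counts, 11456 ± 324 genes had at least 5 counts in morulae (SD, n = 5) and 13055 ± 679 in blastocysts (SD, n = 3), with ranges of 11012 to 11893 and 12556 to 13828 (exact permutation test, two-sided, p = 0.0179, adjusted p = 0.0332 over 13 measures, 0.0179 being the smallest p that 5 against 3 allows). Log2 CPM profiles correlated at 0.933 to 0.943 between morulae, 0.947 to 0.956 between blastocysts and 0.879 to 0.903 across stages, so every embryo was closer to all embryos of its own stage than to any of the other. Morula 5 and blastocyst 3 had no count of Ddx3y, Eif2s3y, Uty or Kdm5d and the highest Xist level of their stage (0.0587, 4.97, 3.54, 0.262 and 148 CPM in the morulae, 23.6, 11.9 and 374 CPM in the blastocysts). Without these 2 embryos, 195 genes were higher and 787 lower.

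Transcription factors of the trophectoderm rose more often than they fell. Of 20 tested members, 6 rose and 1 fell (35% called against 10.6% of all genes), and their median log2 change was 1.53. Gata2, a GATA factor that acts with Gata3 in trophoblast, was at 0 in 4 morulae and had 0, 0.0663, 0, 0 and 0 CPM in morulae and 33.7, 27.2 and 26.5 CPM in blastocysts. It had the smallest adjusted p of these factors (log2 change 10.67 ± 1.59 (SE), adjusted p = 1.44e-04). Every morula lay under 0.196 CPM, the level of 3 counts, so the size of this log2 change is uncertain. Tfap2a, an AP-2 factor of the same lineage, had 0.587, 0.0663, 5.46, 0 and 1.80 CPM in morulae and 109, 66.2 and 66.8 CPM in blastocysts, and even morula 3, the highest of its stage, stayed far below the lowest blastocyst (log2 change 5.68 ± 1.41 (SE), adjusted p = 0.0126). Gata3 was already present in every morula, at 200.3, 253, 277, 141 and 181 CPM in morulae and 1051, 605 and 607 CPM in blastocysts. Blastocyst 1 was the highest and the stages did not overlap (log2 change 1.84 ± 0.48 (SE), adjusted p = 0.0189). Gata3 was not called when blastocyst 1 was left out (adjusted p = 0.123).

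Eomes, a T-box factor needed for trophoblast growth, measured 1.64, 0.994, 0.154, 9.29 and 1.16 CPM in morulae and 43.9, 53.3 and 71.6 CPM in blastocysts. Morula 4 stood apart from the other morulae and was still under all blastocysts (log2 change 4.41 ± 1.19 (SE), adjusted p = 0.0193). Eomes was not called when morula 1, 2 or 5 or blastocyst 3 was left out (adjusted p from 0.0505 to 0.0607). Id2, an inhibitor of basic helix-loop-helix factors that marks outer cells, had 16.3, 33.8, 115, 47.7 and 71.3 CPM in morulae and 883, 660.2 and 679.9 CPM in blastocysts. Its rise was among the 10 largest in CPM and the stages did not overlap (log2 change 3.70 ± 1.03 (SE), adjusted p = 0.0336). Without morula 1, 2, 4 or 5 or any 1 blastocyst it was not called (adjusted p from 0.0616 to 0.104). Grhl2, a factor of epithelial identity, rose (1.21 ± 0.33, adjusted p = 0.0174) with an overlap between morula 3 and blastocyst 3. Grhl2 was not called when blastocyst 1 or 2 was left out (adjusted p from 0.0630 to 0.137). Cdx2, the factor that defines trophectoderm, had 0.704, 0.0663, 0.461, 3.66 and 2.43 CPM in morulae and 18.3, 12.5 and 18.3 CPM in blastocysts. All blastocysts were above all morulae, but the test did not pass (log2 change 3.47 ± 1.57 (SE), adjusted p = 0.173). Cdx2 was called in 5 of 25 alternative settings, among them the fit of the 8 control embryos alone. Klf5 (0.89 ± 0.35, adjusted p = 0.114) and Tead4 (0.22 ± 0.34, adjusted p = 0.775) did not pass either. Klf5 was called in 7 of the 25 alternatives and Tead4 in none. Hand1, a trophoblast giant cell factor, fell (log2 change -4.11 ± 1.22 (SE), adjusted p = 0.0328) from 1.06 to 23.3 CPM in morulae to 0 to 1.42 CPM. Hand1 was not called when morula 4 or blastocyst 1 or 3 was left out (adjusted p from 0.0828 to 0.141). The number of the 20 called higher was 3 without blastocyst 1 and 2 without the 2 embryos that lack Y-linked counts.

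**Figure D3:**
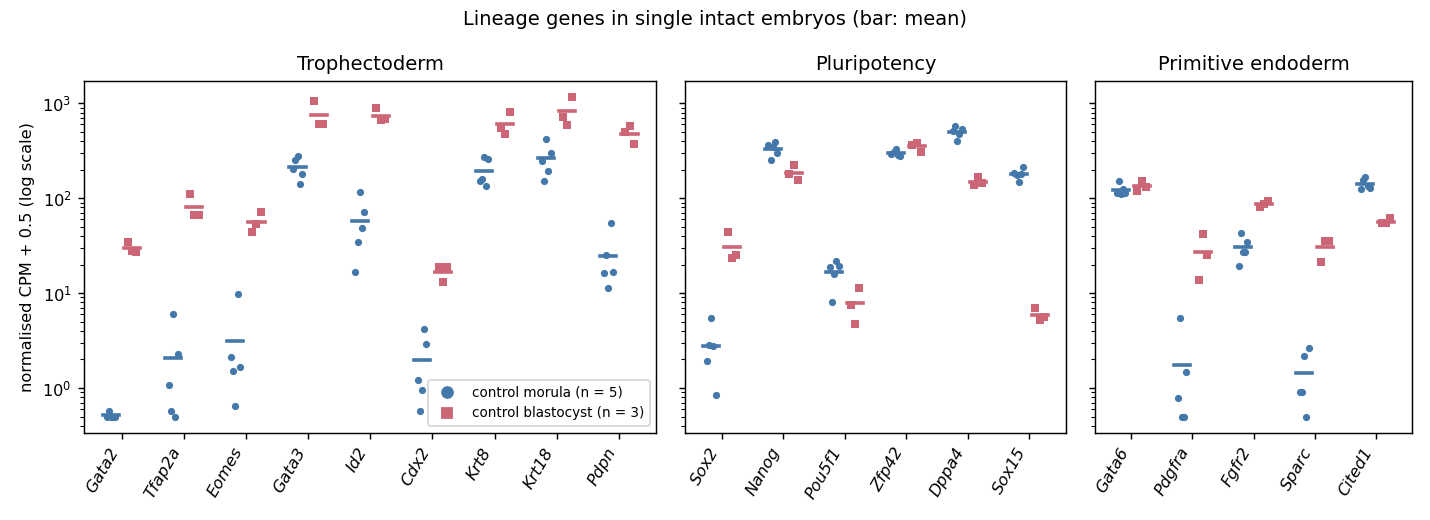
Normalised CPM plus 0.5 (log axis) of lineage genes in each embryo, circles for the 5 control morulae, squares for the 3 control blastocysts and bars for the means. The trophectoderm genes shown sit higher in every blastocyst, Sox2 sits higher and Sox15 lower in every blastocyst, and Gata6 overlaps between the stages. The genes shown were chosen. Of all 20 tested trophectoderm factors, 9 had every blastocyst above every morula. Hand1, which fell, and Grhl2, which overlapped, are not shown.

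Surface genes of outer cells rose more often than they fell. Of 25 tested keratin, desmosome and surface genes, 5 rose and none fell (20% called against 10.6% of all genes). The median log2 change was 1.65. Podoplanin (Pdpn), a mucin-type membrane glycoprotein, had the largest rise among called genes with no overlap and a mean log2 CPM of at least 3, with 15.8, 24.7, 10.9, 54.4 and 16.2 CPM in morulae and 498, 569.9 and 371 CPM in blastocysts. The lowest blastocyst was well above the highest morula, number 4 (log2 change 4.30 ± 0.56 (SE), adjusted p = 3.58e-05). Tspan8, a tetraspanin, had 33.5, 30.5, 29.1, 7.78 and 13.8 CPM in morulae and 215, 164 and 189 CPM in blastocysts and no overlap (log2 change 3.04 ± 0.61 (SE), adjusted p = 0.00214). Anxa6, a membrane-binding annexin, was near 0 in 4 morulae and had 0.0587, 0, 0, 0 and 4.23 CPM in morulae and 55.9, 24.9 and 58.4 CPM in blastocysts. Morula 5 was the exception (log2 change 5.73 ± 1.61 (SE), adjusted p = 0.0275). Without morula 1 or any 1 blastocyst it was not called (adjusted p from 0.0513 to 0.0766). Fabp3, a fatty acid binding protein, rose (1.43 ± 0.37, adjusted p = 0.0151). Fabp3 was not called when blastocyst 3 was left out (adjusted p = 0.124). The simple-epithelium keratins Krt8 and Krt18 did not pass. Krt18 had 247, 153, 416, 194 and 301 CPM in morulae and 718, 588 and 1165 CPM in blastocysts, all blastocysts above all morulae (log2 change 1.65 ± 0.52 (SE), adjusted p = 0.0545), and was called in 14 of the 25 alternatives. Lrp2, a large endocytic receptor, was higher in every blastocyst (186 ± 24.4 against 771 ± 103 CPM, SD, n = 5 and n = 3) without passing (log2 change 2.05 ± 0.81 (SE), adjusted p = 0.134). Lrp2 was called in 7 of the 25 alternatives and Krt8 in 5. The number of rises was 3 without morula 1, blastocyst 1 or blastocyst 2, and 2 without blastocyst 3.

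Of 27 tested pluripotency genes, 1 rose and 3 fell, so that 14.8% were called against 10.6% of all genes. Their median log2 change was -0.04. It was -0.03 with ribosomal and mitochondrial genes left out of the scaling, 0.38 by library totals, 0.42 on log2(TPM + 1) and 0.02 with the length trend removed. Sox2, the factor of the inner cell mass, had 1.41, 2.32, 4.92, 2.29 and 0.347 CPM in morulae and 43.4, 23.2 and 24.6 CPM in blastocysts, with every blastocyst above every morula (log2 change 3.75 ± 1.13 (SE), adjusted p = 0.0389). Sox2 was not called when morula 1, 2, 4 or 5 or any 1 blastocyst was left out (adjusted p from 0.0728 to 0.161). Sox15, its relative, did the opposite, with 183, 173, 148, 181 and 211 CPM in morulae and 6.48, 4.72 and 5.06 CPM in blastocysts. This was among the most certain falls (log2 change -5.05 ± 0.34 (SE), adjusted p = 6.06e-09) and no alternative ended it. Dppa2 and Dppa4, partner chromatin proteins of pluripotent cells, both fell. Dppa4 had 516, 576, 396, 474 and 533 CPM in morulae and 138, 167 and 143 CPM in blastocysts (log2 change -1.74 ± 0.17 (SE), adjusted p = 6.24e-07), and Dppa2 fell from 961 to 1436 to 336 to 429 CPM (-1.50 ± 0.23, adjusted p = 1.31e-04). Nanog had 361, 254, 344, 389 and 299 CPM in morulae and 178, 221 and 157 CPM in blastocysts, all blastocysts lowest (log2 change -0.83 ± 0.69 (SE), adjusted p = 0.518), and did not pass. It was called in 2 of 25 alternatives, both of them fits of the 8 control embryos alone. Zfp42, also called Rex1, overlapped (297 ± 20.8 and 351 ± 42.1 CPM), as did Klf4 and Pou5f1. Pou5f1 read only 16.2 ± 5.31 and 7.32 ± 3.29 CPM, and since this gene has processed copies and the treatment of reads with several matches is not given in the sources used here, its level is uncertain.

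Of 19 tested primitive endoderm genes, 1 rose and 1 fell (median log2 change 0.99), and the 10.5% called was close to the 10.6% of all genes. By library totals 3 rose and 1 fell, and on log2(TPM + 1) 7 and 1. Sparc, a matrix glycoprotein of the later programme, had 0.411, 0.398, 1.69, 0 and 2.14 CPM in morulae and 20.7, 34.5 and 35.3 CPM in blastocysts, so it was close to absent before the blastocyst (log2 change 5.02 ± 0.92 (SE), adjusted p = 7.32e-04). Pdgfra, the receptor that marks the lineage, had 0.293, 4.97, 0, 0 and 0.984 CPM in morulae and 13.1, 41.8 and 24.5 CPM in blastocysts, with all blastocysts above and no call (log2 change 4.40 ± 1.77 (SE), adjusted p = 0.125). Pdgfra was called in 6 of 25 alternatives. Gata6, the early factor, had 114, 151, 110.5, 125 and 113 CPM in morulae and 119.9, 153 and 130.1 CPM in blastocysts and overlapped (log2 change 0.13 ± 0.37 (SE), adjusted p = 0.900). Cited1, a transcriptional coactivator placed in this list, fell from 124 to 166 to 53.7 to 60.8 CPM (log2 change -1.33 ± 0.25 (SE), adjusted p = 7.99e-04). Sox17, a factor of committed primitive endoderm, had 0, 0, 0, 0 and 0 CPM in morulae and 0, 0.270 and 2.75 CPM in blastocysts and was not called (adjusted p = 0.113).

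The receptors Fgfr1 and Fgfr2 of the fibroblast growth factor pathway, which steers the choice between epiblast and primitive endoderm, were higher in every blastocyst than in any morula. Fgfr1 had 6.39, 5.57, 10.7, 4.97 and 3.59 CPM in morulae and 22.5, 30.9 and 36.3 CPM in blastocysts (log2 change 2.26 ± 0.72 (SE), adjusted p = 0.0481). Without morula 1, 2, 4 or 5 or any 1 blastocyst it was not called (adjusted p from 0.0781 to 0.148). Fgfr2 had 18.8, 42.4, 26.7, 26.6 and 34.5 CPM in morulae and 81.2, 87.2 and 93.5 CPM in blastocysts, no overlap and no call (log2 change 1.55 ± 0.59 (SE), adjusted p = 0.101). Fgfr2 was called in 6 of 25 alternatives. The ligand Fgf4 varied widely within both stages, with 93.5, 14.2, 39.7, 171 and 14.0 CPM in morulae and 19.2, 161 and 40.2 CPM in blastocysts, and the stages overlapped (log2 change 0.15 ± 0.85 (SE), adjusted p = 0.962). Spry2, a feedback inhibitor, had 517, 775, 256, 234 and 188 CPM in morulae and 1133, 1255 and 684 CPM in blastocysts. It rose (log2 change 1.38 ± 0.43 (SE), adjusted p = 0.0481) although blastocyst 3 lay below morula 2. Spry2 was not called when morula 1, 3, 4 or 5 or any 1 blastocyst was left out (adjusted p from 0.0521 to 0.180). No other of the 24 tested genes of the list was called, so that the 8.33% called was below the 10.6% of all genes. Among 29 growth factor, LIF, BMP, Nodal and WNT genes 1 rose and 1 fell, against 5 and none by library totals. The 6.9% called was below the share of all genes. Wnt7b, a secreted ligand, rose (3.42 ± 0.96, adjusted p = 0.0258). Wnt7b was not called when morula 1, 2, 3 or 5 or blastocyst 1 or 3 was left out (adjusted p from 0.0515 to 0.0816). Igf2r, which clears IGF2, fell (-1.14 ± 0.28, adjusted p = 0.00854). Without blastocyst 2 or 3 it was not called (adjusted p from 0.0714 to 0.0776). In the Hippo list, 2 of 24 rose, again 8.33% against 10.6% of all genes. The coactivator Yap1 went from 16.5 to 23.1 to 32.5 to 46.9 CPM (1.07 ± 0.26, adjusted p = 0.00945). Yap1 was not called when blastocyst 2 or 3 was left out (adjusted p from 0.0596 to 0.0610). Its partner Tead1 went from 14.2 to 40.3 to 58.8 to 80.1 CPM (1.43 ± 0.40, adjusted p = 0.0218). Tead1 was not called when morula 1 or 4 or blastocyst 1 or 3 was left out (adjusted p from 0.0513 to 0.110). With the length trend removed neither was called.

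Genes that build the blastocoel moved unevenly. Of the beta subunits of the sodium pump, Atp1b1 had 42.4, 17.6, 67.9, 9.16 and 38.5 CPM in morulae and 126, 101 and 113 CPM in blastocysts, all blastocysts highest but not called (log2 change 1.69 ± 0.82 (SE), adjusted p = 0.213), while Atp1b3 fell (-0.76 ± 0.23, adjusted p = 0.0343). Atp1b1 was called in 5 of 25 alternatives, and the call of Atp1b3 ended in 16 of 25. Without morula 1, 4 or 5 or any 1 blastocyst Atp1b3 was not called (adjusted p from 0.0507 to 0.116). The sodium-potassium-chloride carrier Slc12a2 fell from 84.6 to 169 to 13.6 to 21.4 CPM (log2 change -2.85 ± 0.50 (SE), adjusted p = 7.04e-04). Of the water channels, Aqp9 fell from 65.2 to 150.5 to 23.2 to 41.5 CPM (-1.66 ± 0.31, adjusted p = 7.96e-04) and Aqp3 overlapped (253 ± 66.7 and 189 ± 56.3 CPM). In all, 3 of 14 fell (1 with limma-voom), while 7.46% of all genes fell. The median of -0.28 became 0.12 with the length trend removed, 0.16 by library totals and 0.20 with limma-voom. On log2(TPM + 1) and log2(TPM + 0.1) it was 0.13 and 0.56. Of 25 junction genes 2 rose and 1 fell, so that the 12% called was close to the 10.6% of all genes. None rose without blastocyst 1 or without blastocyst 3, and 1 without morula 1, morula 4 or blastocyst 2, while 9 rose by library totals and 12 on log2(TPM + 1). Ctnnd1, the p120 catenin, rose from 9.50 to 23.3 to 34.7 to 55.5 CPM (1.73 ± 0.45, adjusted p = 0.0143). Ctnnd1 was not called when blastocyst 1 or 3 was left out (adjusted p from 0.0609 to 0.0833). The polarity protein Crb3 fell from 103 to 145 to 23.0 to 45.7 CPM (-1.65 ± 0.31, adjusted p = 9.82e-04). E-cadherin (Cdh1) had 124, 94.0, 78.5, 68.0 and 122 CPM in morulae and 202, 187 and 173 CPM in blastocysts, all blastocysts above and no call (log2 change 0.94 ± 0.39 (SE), adjusted p = 0.132). Cdh1 was called in 6 of 25 alternatives.

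Adhesion and cortex genes rose more often. Of 25 genes of integrins, talins and their partners, 7 rose and 1 fell (median 1.42, 32% called against 10.6% of all genes). With the length trend removed 2 rose, and 3 rose without blastocyst 2 or without blastocyst 3. Wipf1, which binds the actin nucleation factor WASP, had 2.64, 1.06, 3.92, 2.35 and 4.46 CPM in morulae and 48.3, 71.4 and 41.1 CPM in blastocysts (log2 change 4.21 ± 1.02 (SE), adjusted p = 0.00906). Both talins, which couple integrins to actin, rose. Tln2 had 1.64, 6.36, 3.69, 1.31 and 4.86 CPM in morulae and 41.5, 46.8 and 38.7 CPM in blastocysts (log2 change 3.57 ± 0.95 (SE), adjusted p = 0.0166). Tln2 was not called when blastocyst 2 was left out (adjusted p = 0.0508). Tln1 went from 9.81 to 19.1 to 33.3 to 41.1 CPM (1.42 ± 0.36, adjusted p = 0.0125). Without blastocyst 3 it was not called (adjusted p = 0.0812). Zyxin (Zyx), an actin-regulating protein of adhesion sites, rose (3.64 ± 0.95, adjusted p = 0.0141). Zyx was not called when blastocyst 3 was left out (adjusted p = 0.0755). The laminin receptor subunit Itga6 rose as well (1.50 ± 0.39, adjusted p = 0.0149). Itga6 was not called when blastocyst 2 was left out (adjusted p = 0.0975). Fibronectin (Fn1), an extracellular matrix protein, had 0.763, 1.66, 9.23, 6.21 and 2.43 CPM in morulae and 28.0, 38.3 and 50.6 CPM in blastocysts (log2 change 3.26 ± 0.92 (SE), adjusted p = 0.0227). Without morula 1, 2 or 5 or blastocyst 2 or 3 it was not called (adjusted p from 0.0534 to 0.0951). The small GTPase Rap1b fell (-1.36 ± 0.21, adjusted p = 1.10e-04). Of 32 actin and myosin genes 6 rose and 1 fell (21.9% called against 10.6% of all genes). The rises numbered 3 without blastocyst 1 and 2 without blastocyst 3. The non-muscle myosin Myh9 had 115, 121, 227, 89.1 and 131 CPM in morulae and 676, 267 and 343 CPM in blastocysts (log2 change 1.65 ± 0.33 (SE), adjusted p = 0.00171), and cofilin (Cfl1), which severs filaments, fell from 1049 to 1279.6 to 435 to 644 CPM (-1.11 ± 0.16, adjusted p = 4.47e-05). Actb, the most abundant of them, had 17639, 11778, 17212, 13304 and 14612 CPM in morulae and 38927, 27947 and 27439 CPM in blastocysts and no overlap, without a call (log2 change 1.08 ± 0.44 (SE), adjusted p = 0.147). Actb was called in 9 of 25 alternatives.

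Called genes of sterol synthesis all rose. Cholesterol is made from acetyl-CoA through the mevalonate pathway, and SREBP2, the product of Srebf2, switches its genes on when membrane sterol is low. Of 27 tested genes 9 rose (33.3% called against 10.6% of all genes), with a median of 1.22 (1.53 on log2(TPM + 1), 1.65 by library totals). The count was 3 without blastocyst 1, 5 without blastocyst 3 and 7 with the length trend removed. Insig1, which holds SREBP in the endoplasmic reticulum and is itself a target, had 668, 199, 631, 192 and 589.9 CPM in morulae and 4006, 1808 and 1529 CPM in blastocysts. Morulae 2 and 4 were lower than the others, and all were below the blastocysts (log2 change 2.42 ± 0.60 (SE), adjusted p = 0.0166). Insig1 was not called when blastocyst 1 was left out (adjusted p = 0.122). Hmgcs1, a synthase early in the mevalonate pathway, had 93.6, 118, 136, 125 and 149.7 CPM in morulae and 465, 433 and 306 CPM in blastocysts (log2 change 1.69 ± 0.33 (SE), adjusted p = 0.00132), and no alternative ended its call.

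Downstream, squalene epoxidase (Sqle) had 46.9, 28.2, 78.2, 82.1 and 59.5 CPM in morulae and 261, 136 and 140.2 CPM in blastocysts (log2 change 1.60 ± 0.30 (SE), adjusted p = 9.52e-04). It was higher in every blastocyst than in any morula. Srebf2 rose from 15.1 to 21.8 to 64.4 to 98.2 CPM (2.11 ± 0.60, adjusted p = 0.0243). Srebf2 was not called when morula 1, 4 or 5 or blastocyst 1 or 3 was left out (adjusted p from 0.0508 to 0.102). Not every step rose: Msmo1, a sterol demethylating oxidase, had 275, 84.0, 178, 244 and 239.6 CPM in morulae and 449, 230.0 and 241 CPM in blastocysts and overlapped (log2 change 0.59 ± 0.37 (SE), adjusted p = 0.342). Blastocyst 1 had the highest summed level of the list, 9365 CPM, against 5289 CPM and 4335 CPM in blastocysts 2 and 3 and 1512 to 2659 CPM in the morulae. Of 25 fatty acid genes 4 rose and 1 fell (median 1.16, 20% called against 10.6% of all genes). The desaturase Scd1 had 69.4, 29.3, 86.0, 74.4 and 58.9 CPM in morulae and 457, 342 and 304 CPM in blastocysts (log2 change 2.53 ± 0.44 (SE), adjusted p = 5.22e-04), and Acly, which supplies cytosolic acetyl-CoA, had 54.2, 73.3, 49.6, 101 and 93.3 CPM in morulae and 330.2, 229 and 207 CPM in blastocysts (log2 change 1.78 ± 0.26 (SE), adjusted p = 6.86e-05). Neither overlapped between stages. Fatty acid synthase (Fasn) rose (1.65 ± 0.42, adjusted p = 0.0125). Without blastocyst 1 or 3 it was not called (adjusted p from 0.0569 to 0.117). The elongase Elovl6 passed narrowly (0.73 ± 0.23, adjusted p = 0.0391) and was not called without any 1 embryo. Acsl4, which activates polyunsaturated fatty acids, went the other way, with 1323, 1047, 1160.1, 1330.4 and 1522 CPM in morulae and 268, 196 and 149.7 CPM in blastocysts (log2 change -2.64 ± 0.40 (SE), adjusted p = 1.38e-04).

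**Figure D4:**
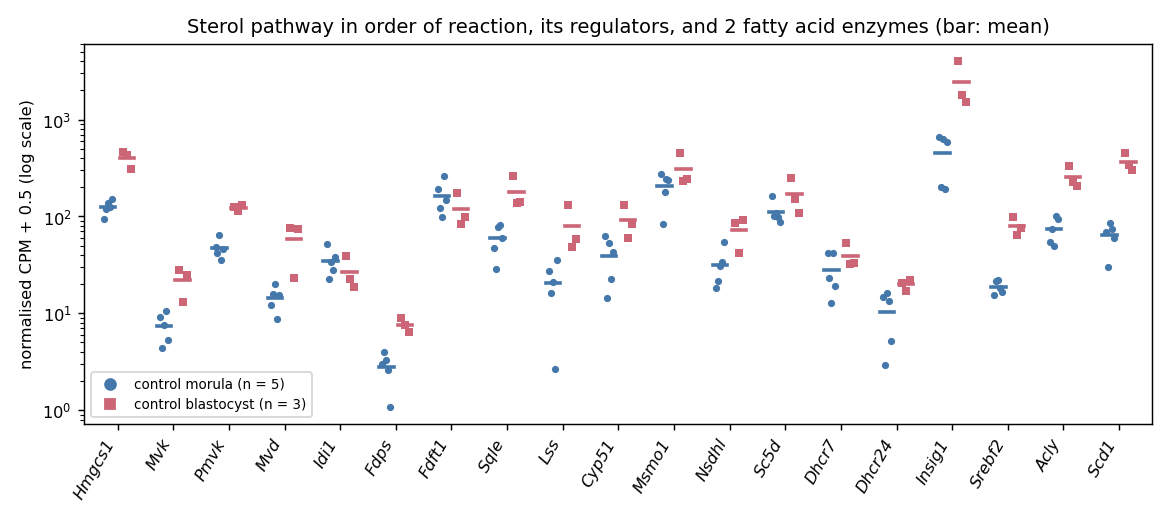
Normalised CPM plus 0.5 (log axis) of sterol genes in each embryo in the order of the reactions, then Insig1 and Srebf2 and the fatty acid genes Acly and Scd1, with bars for the means. Hmgcs1, Sqle, Scd1 and Acly do not overlap between the stages, whereas Fdft1 and Msmo1 do.

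Promoters were read where sterol genes moved together. The window runs from 250 bases before to 50 bases after the start, from RefSeq on GRCm38.p6, and the letters TCACNCCAC, a form of the sterol regulatory element, were searched on both strands. A gene was counted if any of its windows held them. This was so for 1.49% of the tested genes with a window. It was 3.37% of the 386 such genes that rose and 0.768% of the 911 that fell. Among the 20 sterol genes with a window Hmgcs1 alone holds them, with the first base at -137 from the start (chr13:119690101-119690400, plus strand). It is shown with the match in capitals:
Hmgcs1: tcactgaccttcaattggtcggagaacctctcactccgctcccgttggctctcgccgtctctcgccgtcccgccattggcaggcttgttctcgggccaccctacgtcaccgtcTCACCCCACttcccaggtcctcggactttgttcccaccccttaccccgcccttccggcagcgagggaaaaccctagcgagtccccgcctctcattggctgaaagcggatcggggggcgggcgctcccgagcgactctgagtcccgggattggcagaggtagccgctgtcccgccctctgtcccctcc
A palindrome bound by AP-2 factors, GCCNNNGGC, was found in 27.4% of the tested genes with a window, counted in the same way. It was found in 34.5% of those that rose and 22.8% of those that fell. Windows are shown, with any match in capitals, for Pdpn (chr4:143299515-143299814, minus strand), the large rise described first among the surface genes, which does not hold it, for Hnrnpa0 (chr13:58128507-58128806, minus strand), another large rise, which does, and for Sox15 (chr11:69654787-69655086, plus strand), a large fall, which does not:
Pdpn: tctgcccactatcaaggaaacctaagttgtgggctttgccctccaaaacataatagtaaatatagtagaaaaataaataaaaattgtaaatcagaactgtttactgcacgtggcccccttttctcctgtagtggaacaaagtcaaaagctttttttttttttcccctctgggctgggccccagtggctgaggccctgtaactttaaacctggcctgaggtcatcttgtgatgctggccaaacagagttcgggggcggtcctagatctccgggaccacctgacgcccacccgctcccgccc
Hnrnpa0: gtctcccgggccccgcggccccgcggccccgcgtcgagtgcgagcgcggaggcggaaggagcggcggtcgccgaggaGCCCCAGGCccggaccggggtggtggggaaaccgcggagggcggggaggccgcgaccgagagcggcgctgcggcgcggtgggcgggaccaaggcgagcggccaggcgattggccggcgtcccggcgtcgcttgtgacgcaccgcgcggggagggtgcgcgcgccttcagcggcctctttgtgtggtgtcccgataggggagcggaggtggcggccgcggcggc
Sox15: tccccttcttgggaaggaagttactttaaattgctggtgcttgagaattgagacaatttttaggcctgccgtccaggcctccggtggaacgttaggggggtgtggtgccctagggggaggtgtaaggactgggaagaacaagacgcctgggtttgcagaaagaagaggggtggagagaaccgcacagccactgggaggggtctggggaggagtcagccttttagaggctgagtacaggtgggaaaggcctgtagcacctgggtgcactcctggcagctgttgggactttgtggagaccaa
A GATA motif, AGATAA, was found in 8.31%, 7.25% and 6.92% of the same sets of genes, and a TEAD motif, GGAATG, in 14.6%, 14.2% and 14.1%. These matches describe letters in a window and are not measured binding.

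In energy metabolism, a few glycolytic genes rose and a few genes of the citrate cycle fell. Of 23 glycolysis genes 4 rose and 1 fell (median 0.61, 21.7% called against 10.6% of all genes). Gpi1, the isomerase of glucose 6-phosphate, had 24.4, 27.0, 28.3, 20.9 and 31.4 CPM in morulae and 80.8, 78.7 and 79.5 CPM in blastocysts, with little spread in either stage (log2 change 1.59 ± 0.38 (SE), adjusted p = 0.00663). Pyruvate kinase (Pkm) had 37.6, 16.8, 31.5, 27.5 and 68.2 CPM in morulae and 111, 144 and 168 CPM in blastocysts (log2 change 1.95 ± 0.49 (SE), adjusted p = 0.0126). Pkm was not called when blastocyst 3 was left out (adjusted p = 0.0638). Hexokinase 2 (Hk2) rose (1.35 ± 0.39, adjusted p = 0.0282). Hk2 was not called when morula 1, 2 or 5 or any 1 blastocyst was left out (adjusted p from 0.0550 to 0.104). Phosphoglycerate mutase (Pgam1) fell (-1.40 ± 0.35, adjusted p = 0.00949). Without blastocyst 1 it was not called (adjusted p = 0.0680). Gapdh rose (2.78 ± 0.73, adjusted p = 0.0176). Gapdh was not called when blastocyst 2 or 3 was left out (adjusted p from 0.0763 to 0.0834). It read only 2.65 ± 1.21 and 18.3 ± 5.10 CPM and has many processed copies, so its level is uncertain. Of 19 citrate cycle genes none rose and 3 fell (15.8% called against 10.6% of all genes). Mdh2 had 1342, 1014, 987, 1224 and 1146 CPM in morulae and 498, 401 and 451 CPM in blastocysts (log2 change -1.34 ± 0.16 (SE), adjusted p = 8.25e-06) and Sucla2 794, 909, 914, 992 and 855 CPM in morulae and 319, 313 and 234 CPM in blastocysts (log2 change -1.63 ± 0.30 (SE), adjusted p = 7.04e-04), each without overlap. Idh3g also fell (-1.23 ± 0.36, adjusted p = 0.0288). Idh3g was not called when morula 5 or blastocyst 1 or 2 was left out (adjusted p from 0.0675 to 0.148). The list's median was 0.07, and by library totals 7 members rose and 2 fell.

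Of 73 nuclear genes of oxidative phosphorylation 6 rose and 6 fell (median 0.07, 16.4% called against 10.6% of all genes). By library totals 31 rose and 2 fell, and with the length trend removed 20 rose and 4 fell. Of the 13 mitochondrially encoded messages, 4 rose and 2 fell (46.2% called against 10.6% of all genes). By library totals and with the length trend removed 7 rose and none fell, on log2(TPM + 1) 10 rose and none fell, and without blastocyst 3 none fell. The complex IV subunit mt-Co1 had 1855, 2451, 1623, 2359 and 1583 CPM in morulae and 3625, 4899.9 and 3589 CPM in blastocysts, the largest gain in CPM among all called genes (log2 change 1.03 ± 0.26 (SE), adjusted p = 0.0102). Without blastocyst 2 it was not called (adjusted p = 0.0807). mt-Co2 (1.88 ± 0.30, adjusted p = 1.51e-04) and mt-Co3 (1.89 ± 0.46, adjusted p = 0.00797) rose with it. Cytochrome b (mt-Cytb) had 28926, 32267, 27777, 37862 and 18102 CPM in morulae and 17242, 19400.4 and 10961 CPM in blastocysts, with blastocyst 2 above morula 5 (log2 change -0.87 ± 0.21 (SE), adjusted p = 0.00949). mt-Cytb was not called when blastocyst 3 was left out (adjusted p = 0.0853). Mitochondrial messages made up 3.99% ± 0.852 of counts in morulae and 4.20% ± 0.691 in blastocysts (exact permutation test, two-sided, p = 0.75).

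Many ribosome and translation genes fell. Of 81 cytosolic ribosomal protein genes none rose and 36 fell (44.4% called against 10.6% of all genes). The median log2 change was -0.50, which shrank to -0.04 on log2(TPM + 1) and -0.08 by library totals. With the length trend removed it was -0.13, and 4 rose and 15 fell. Without blastocyst 1 or blastocyst 3, 23 fell. Rpl15, of the large subunit, had 1074, 1162, 767, 1051 and 1028 CPM in morulae and 300.3, 459.9 and 336 CPM in blastocysts, well apart (log2 change -1.48 ± 0.17 (SE), adjusted p = 5.31e-06), and Rps6, the small subunit protein phosphorylated by S6 kinase, had 1963, 2498, 1707, 1968 and 1905 CPM in morulae and 577, 992 and 723 CPM in blastocysts (log2 change -1.39 ± 0.18 (SE), adjusted p = 1.61e-05). Their family has many processed copies, which makes single levels uncertain. Summed, ribosomal protein counts were 6.49% ± 0.316 of the library in morulae and 5.79% ± 0.412 in blastocysts (exact permutation test, two-sided, p = 0.0357, adjusted p = 0.0516 over 13 measures).

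Of 43 ribosome biogenesis genes none rose and 18 fell (median -0.63, -0.15 on log2(TPM + 1), 13 of them still lower by library totals). This was 41.9% called, against 10.6% of all genes. Polr1c, a subunit shared by RNA polymerases I and III, had 397, 246, 369, 162 and 297 CPM in morulae and 66.9, 44.8 and 79.9 CPM in blastocysts (log2 change -2.20 ± 0.28 (SE), adjusted p = 1.30e-05). Nmd3, the export adaptor of the large subunit, had 394, 433, 471, 468 and 435 CPM in morulae and 128, 128 and 104 CPM in blastocysts (log2 change -1.87 ± 0.24 (SE), adjusted p = 1.65e-05). All blastocysts lay far below the morulae for both. Of 31 translation factors 2 rose (1 without any 1 of morulae 1, 2, 4 and 5 and blastocysts 1 and 3) and 11 fell (median -0.48, -0.02 on log2(TPM + 1)). In total 41.9% of these factors were called, against 10.6% of all genes. The cap-binding protein Eif4e had 958, 926, 814, 885 and 1124 CPM in morulae and 177, 252 and 184 CPM in blastocysts (log2 change -2.20 ± 0.19 (SE), adjusted p = 1.18e-07), while its scaffold Eif4g1 rose from 77.2 to 119 to 183 to 224 CPM (log2 change 1.14 ± 0.20 (SE), adjusted p = 5.87e-04).

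Cell division genes fell more often than they rose. Of 40 mitosis genes 3 rose and 16 fell (47.5% called against 10.6% of all genes). Their median of -0.44 became 0.06 on log2(TPM + 1) and 0.07 on log2(TPM + 0.1), and on the former 9 rose and 9 fell. Cyclin B1 (Ccnb1) had 1506, 1424, 1206, 1729 and 1873 CPM in morulae and 358, 297 and 265 CPM in blastocysts (log2 change -2.33 ± 0.26 (SE), adjusted p = 2.32e-06), and its kinase Cdk1 had 542, 509, 519.7, 786 and 598 CPM in morulae and 171, 147 and 143 CPM in blastocysts (log2 change -1.94 ± 0.24 (SE), adjusted p = 1.08e-05). Both were lower in every blastocyst, with the highest blastocyst below the lowest morula. The risers, chosen here after their values were seen because they are few, were Top2a, which untangles DNA (1.09 ± 0.20, adjusted p = 7.01e-04), the cytokinesis protein Anln (1.22 ± 0.27, adjusted p = 0.00440) and the kinetochore protein Cenpf (0.96 ± 0.25, adjusted p = 0.0146); 1 of them was called without blastocyst 2. Of 45 replication genes 2 rose (none without blastocyst 3) and 14 fell (median -0.60, -0.12 on log2(TPM + 1)). Thus 35.6% were called against 10.6% of all genes. By library totals 5 rose and 8 fell, and with the length trend removed 3 and 8. Thymidylate synthase (Tyms) had 598, 500.4, 485, 574 and 534 CPM in morulae and 111, 141 and 136 CPM in blastocysts (log2 change -2.06 ± 0.20 (SE), adjusted p = 6.09e-07), and Slbp, which binds histone mRNA, fell from 437 to 634 to 135 to 147 CPM (-1.98 ± 0.22, adjusted p = 2.18e-06).

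Of 25 genes of G1 cyclins, their kinases and inhibitors 1 rose and 1 fell, both of them inhibitors, and the 8% called was below the 10.6% of all genes. Cdkn1b (p27) had 4.87, 2.58, 7.77, 1.57 and 1.33 CPM in morulae and 52.0, 44.0 and 32.7 CPM in blastocysts (log2 change 3.56 ± 0.96 (SE), adjusted p = 0.0171). Cdkn1b was not called when blastocyst 1 or 2 was left out (adjusted p from 0.0517 to 0.0748). Cdkn1a (p21), a p53 target, had 128, 58.6, 83.2, 146 and 37.5 CPM in morulae and 18.7, 17.5 and 23.3 CPM in blastocysts (log2 change -2.19 ± 0.52 (SE), adjusted p = 0.00749). Without blastocyst 1 or 2 it was not called (adjusted p from 0.0516 to 0.0525). The stages did not overlap for either gene. Tigar, a p53 target that lowers fructose 2,6-bisphosphate, had 553, 573, 517, 672 and 533 CPM in morulae and 159.9, 152 and 135 CPM in blastocysts (log2 change -1.93 ± 0.20 (SE), adjusted p = 8.50e-07). These were the falls among 26 tested p53 genes, of which none rose (2 rose and 2 fell on log2(TPM + 1)). The 7.69% called was below the 10.6% of all genes. Of 26 apoptosis genes none rose and 2 fell, the caspase Casp6 (-1.35 ± 0.31, adjusted p = 0.00512) and the survival factor Mcl1 (-0.68 ± 0.21, adjusted p = 0.0413; lost without any 1 embryo). The share of apoptosis genes called was again 7.69%. On log2(TPM + 1) 7 apoptosis genes rose and none fell.

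Several cytosolic chaperones fell and several of the endoplasmic reticulum rose. Of 22 heat shock genes 2 rose (none without morula 1, morula 2 or blastocyst 3) and 6 fell, with 36.4% called against 10.6% of all genes. Their median of -0.32 became 0.10 by library totals and 0.14 on log2(TPM + 1), where 5 rose and 5 fell in each. Hspa8, the constitutive HSP70, had 4228, 4287, 3603, 4782 and 5885 CPM in morulae and 1067, 1248 and 1191 CPM in blastocysts (log2 change -1.96 ± 0.20 (SE), adjusted p = 1.13e-06), and Stip1, which links HSP70 to HSP90, had 1172, 811, 1021, 1375 and 1313 CPM in morulae and 299.6, 296 and 358 CPM in blastocysts (log2 change -1.84 ± 0.24 (SE), adjusted p = 1.54e-05). Neither overlapped. Of 29 genes of the endoplasmic reticulum and the integrated stress response 6 rose and 3 fell (median 0.78, 31% called against 10.6% of all genes). Calreticulin (Calr), a lectin chaperone, had 96.0, 198, 139, 188 and 150.5 CPM in morulae and 864, 808 and 778 CPM in blastocysts, a narrow range in blastocysts well above the morulae (log2 change 2.41 ± 0.23 (SE), adjusted p = 4.92e-07). Hsp90b1 (GRP94) had 120.5, 177, 102, 114 and 123 CPM in morulae and 477, 549 and 379 CPM in blastocysts (log2 change 1.88 ± 0.39 (SE), adjusted p = 0.00303), and Hspa5 (BiP) rose from 258 to 386 to 554 to 675 CPM (log2 change 0.88 ± 0.20 (SE), adjusted p = 0.00409). Dnajb9, a cofactor of BiP, moved against them, with 271, 368, 269, 291 and 241 CPM in morulae and 23.7, 30.8 and 30.4 CPM in blastocysts (log2 change -3.35 ± 0.42 (SE), adjusted p = 1.61e-05). Of 29 antioxidant genes 1 rose (none without morula 2, 3 or 4 or blastocyst 1) and 4 fell, with 17.2% called against 10.6% of all genes. Their median of -0.10 became 0.33 by library totals, 0.38 on log2(TPM + 1) and 0.17 with the length trend removed. Those that fell were the peroxiredoxins Prdx6, Prdx3, Prdx5 and Prdx1, by log2 -1.51, -0.91, -0.84 and -0.82, of which 2 were called without morula 1, morula 3, blastocyst 1 or blastocyst 3, and none was lower by library totals.

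Of 40 lysosome genes 4 rose (none without blastocyst 1) and 15 fell, with 47.5% called against 10.6% of all genes. Their median of -0.43 became 0.02 on log2(TPM + 1) and 0.06 on log2(TPM + 0.1). By library totals 8 rose and 7 fell, on both TPM scales 11 rose and 7 fell, and with the length trend removed 6 rose and 11 fell. Cd63, a tetraspanin of late endosomes, fell from 2794 to 3931 to 1099.6 to 1374 CPM (log2 change -1.36 ± 0.15 (SE), adjusted p = 1.95e-06). The morulae were above all blastocysts. Of 32 splicing factors 5 rose and 5 fell (31.2% called against 10.6% of all genes). These numbers became 10 and 4 by library totals, 10 and 3 on log2(TPM + 1), and 4 and 7 with the length trend removed. Hnrnpa0, which binds AU-rich RNA, had 17.1, 29.6, 36.2, 20.9 and 16.0 CPM in morulae and 369, 396 and 278 CPM in blastocysts, the smallest adjusted p among the rises named here (log2 change 3.86 ± 0.33 (SE), adjusted p = 7.38e-08), and Srsf7 fell from 993 to 1319 to 408 to 606 CPM (log2 change -1.22 ± 0.17 (SE), adjusted p = 2.75e-05). None of 23 amino acid and nucleoside transporters was called (median 0.87), against 10.6% of all genes.

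Some of the most abundant transcripts of the morula were among the largest losses in CPM. Timd2, a cell surface receptor of the TIM family, had 22808, 24274, 18951, 26247 and 22507 CPM in morulae and 2179, 3852 and 1126 CPM in blastocysts. Every blastocyst was far below every morula, and the mean fell by 20571 CPM (log2 change -3.27 ± 0.40 (SE), adjusted p = 2.96e-05). Dppa3 (Stella), which protects maternal methylation, had 10361, 12922, 11727, 11154 and 11556 CPM in morulae and 2917, 3852 and 2756 CPM in blastocysts (log2 change -1.86 ± 0.18 (SE), adjusted p = 6.24e-07). The homeobox gene Obox6 had 542, 631, 458, 869.8 and 615 CPM in morulae and 4.47, 0 and 1.22 CPM in blastocysts, close to 0 in all 3 blastocysts (log2 change -8.38 ± 1.24 (SE), adjusted p = 4.25e-04), and Trim43b had 402, 284, 339, 462 and 322 CPM in morulae and 2.31, 0.539 and 2.07 CPM in blastocysts (log2 change -7.78 ± 0.84 (SE), adjusted p = 1.54e-05). Both belong to families of near-identical copies, so their counts are uncertain. Of 19 cleavage-stage genes 1 rose and 6 fell (median -1.35, 36.8% called against 10.6% of all genes), Obox6 and Trim43b included. The rise was not called when morula 1, 2, 4 or 5 or any 1 blastocyst was left out. Trim43a (-2.88 ± 0.28, adjusted p = 4.92e-07), Alppl2, a placental-type alkaline phosphatase (-1.39 ± 0.18, adjusted p = 1.89e-05), and Pramel7 (-1.35 ± 0.22, adjusted p = 1.80e-04) were also among the falls. Of 27 oocyte transcripts none rose and 2 fell, Dppa3 and Padi6, an oocyte lattice protein (-2.51 ± 0.75, adjusted p = 0.0343). The 7.41% called was below the 10.6% of all genes. Padi6 was not called when morula 4 or 5 or blastocyst 1 or 3 was left out (adjusted p from 0.0764 to 0.158).

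Other abundant transcripts fell with them. Tmem41b, a scramblase of the endoplasmic reticulum, had 5589, 4832, 5218, 6979.8 and 7224 CPM in morulae and 1128, 1150.2 and 741 CPM in blastocysts (log2 change -2.57 ± 0.22 (SE), adjusted p = 8.95e-08). Cnbp, a zinc-knuckle protein that binds nucleic acid, had 3616, 3234, 3660.4, 3695 and 3868 CPM in morulae and 460.0, 542 and 626 CPM in blastocysts (log2 change -2.74 ± 0.17 (SE), adjusted p = 3.50e-09). Map1lc3b, which coats autophagosomes, had 12225, 15714, 7703, 12071 and 11439 CPM in morulae and 3796, 6458 and 3374 CPM in blastocysts (log2 change -1.38 ± 0.26 (SE), adjusted p = 0.00131). Hprt, the purine salvage enzyme, fell from 4931 to 9168 to 1577 to 1723 CPM (log2 change -1.96 ± 0.25 (SE), adjusted p = 1.30e-05). Among falls of middle abundance were Allc, an allantoicase homologue (21.3 to 70.9 to 0.488 to 1.28 CPM), Apobec3, a cytidine deaminase (41.2 to 62.6 to 0.372 to 4.21 CPM), Dnaaf1, an assembly factor of dynein arms (25.1 to 73.2 to 0.223 to 3.42 CPM), the integrin subunit Itgae (11.2 to 40.8 to 0.894 to 2.56 CPM) and Sp110 (14.7 to 66.1 to 1.28 to 2.62 CPM), each with a log2 change between -5.86 and -4.05.

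Among chromatin genes, Tet1, which oxidises 5-methylcytosine, had 62.2, 55.3, 52.0, 34.2 and 35.1 CPM in morulae and 143, 204 and 202 CPM in blastocysts (log2 change 1.94 ± 0.30 (SE), adjusted p = 1.34e-04). The maintenance enzyme Dnmt1 overlapped (11.5 ± 5.31 and 18.7 ± 3.48 CPM). Of 36 histone-modifying genes 3 rose and 5 fell (22.2% called against 10.6% of all genes). These numbers became 5 and 4 by library totals, 7 and 4 on log2(TPM + 1), and 2 and 7 with the length trend removed. The Polycomb members Eed and Ezh2 were among the falls. Eed had 505, 722, 462, 444 and 428 CPM in morulae and 192, 176 and 129 CPM in blastocysts (log2 change -1.63 ± 0.21 (SE), adjusted p = 1.48e-05), and Ezh2, the methyltransferase, went from 209 to 295 to 112 to 134 CPM (log2 change -1.07 ± 0.19 (SE), adjusted p = 6.05e-04). Of 28 imprinted genes 1 rose and 3 fell, so that 14.3% were called against 10.6% of all genes. By library totals 2 rose and 2 fell, and on log2(TPM + 1) 5 and 2. Snrpn had 221, 204, 157, 190.5 and 145 CPM in morulae and 85.0, 56.6 and 79.3 CPM in blastocysts (log2 change -1.32 ± 0.23 (SE), adjusted p = 4.57e-04), and Sgce fell from 6.08 to 23.3 to 0 to 1.22 CPM (log2 change -4.38 ± 0.99 (SE), adjusted p = 0.00474). Airn, the noncoding RNA antisense to Igf2r, was at 0 in all morulae and at 1.10 to 2.68 CPM in blastocysts, whose mean is at least 8.71-fold higher if the morulae are set to 3 counts each. Its call was lost without any 1 embryo. Strand use in counting is not given in the sources used here, so Airn and the fall of Igf2r cannot be separated by strand.

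**Figure D5:**
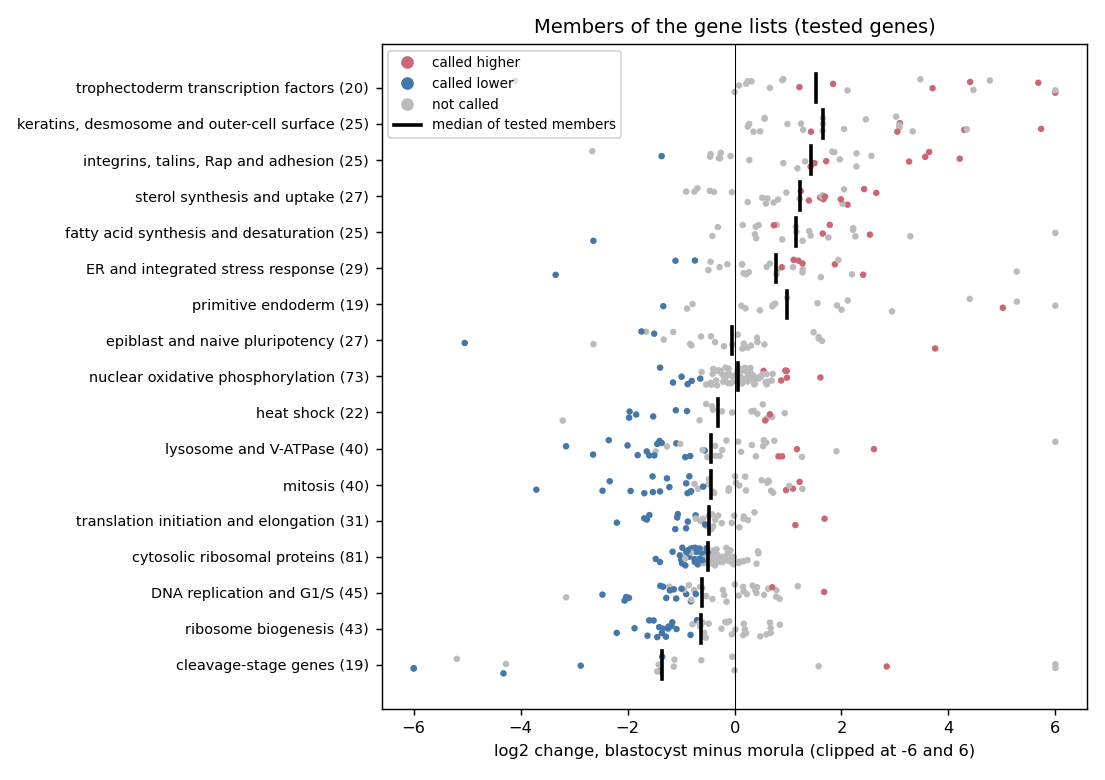
Log2 change from morula to blastocyst (x axis, clipped at 6 in either direction) of each tested member of 17 gene lists, coloured by call, with the median of each list as a bar and the number of tested members in brackets. The trophectoderm, surface, adhesion, sterol and fatty acid lists have medians above 1 in the edgeR scaling. In the same scaling the ribosomal, replication and cleavage-stage lists have medians of -0.50 or below. Lists not shown also have medians above 1: growth factor and WNT signalling (1.18), X-inactivation region (1.64), sperm (1.46) and fibroblast markers (3.96). No gene of the X-inactivation, sperm or fibroblast lists was called, so a median above 1 does not by itself set a list apart.

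Some genes were detected at 1 stage only. In 78 genes every morula had 0 counts and every blastocyst at least 10, and 45 of them were called. The reverse held for 15 genes, of which 10 were called. Both groups were picked by the same counts that were tested, so these calls add no separate evidence. Among all tested genes 10.6% were called. Adh1, an alcohol dehydrogenase, led the first group with 92.4, 41.2 and 35.3 CPM in blastocysts (at least 287-fold higher on the same limit of 3 counts, adjusted p = 2.32e-06). Cers3, a ceramide synthase, had 13.8, 16.1 and 21.0 CPM (at least 86.6-fold), and Klk7, a kallikrein protease, 13.6, 11.1 and 21.9 CPM (at least 79.0-fold). Pdk3, a kinase that inhibits pyruvate dehydrogenase, led the second with 51.5, 3.18, 23.1, 5.56 and 4.28 CPM in morulae (at least 86.6-fold lower in blastocysts, adjusted p = 0.00134), followed by the germ cell gene Nanos3, with 10.5, 1.59, 1.23, 14.5 and 3.65 CPM (at least 31.1-fold lower). All these folds are bounds for the mean of the stage and not for each embryo. The mean was raised by morula 1 for Pdk3 and by morulae 1 and 4 for Nanos3. Errfi1, a feedback inhibitor of EGF receptors, and Ubqln2, a ubiquitin-binding shuttle, rose from a low level instead, from 1.46 to 8.45 to 31.4 to 56.7 CPM (3.20 ± 0.57, adjusted p = 5.72e-04) and from 3.17 to 5.56 to 26.3 to 48.8 CPM (3.17 ± 0.69, adjusted p = 0.00354).

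No gene was called in the lists of cumulus and granulosa, sperm, blood or fibroblast markers, of Y-linked genes or of the X-inactivation region. In that order only 3, 7, 5, 4, 7 and 6 members were tested. With 10.6% of all genes called, lists this small cannot show a lack of change. Summed levels of these other-cell lists were 8.27 to 23.1 and 6.65 to 19.4 CPM for cumulus and granulosa, 0.116 to 3.25 and 3.23 to 5.66 CPM for sperm, 6.49 to 22.0 and 3.57 to 19.4 CPM for blood, and 0.0587 to 6.49 and 3.03 to 7.97 CPM for fibroblasts, in morulae and blastocysts in turn. Of their members 9 of 16, 4 of 12, 9 of 13 and 6 of 12 had 0 counts in all 8 embryos.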

How the data were processed

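The authors' count table holds raw read counts per gene symbol and their TPM table holds length-scaled values of 15625 genes; per the submitters' processing notes, cutadapt, HISAT2, featureCounts and edgeR were used on build GRCm39, with annotation, strand and multiple-match settings not given in the sources used here. From the deposited counts, sister embryos of the split groups were summed (18 units, 5 groups), genes were kept with filterByExpr (15875 of 37229), scaled by TMM and tested with edgeR's robust quasi-likelihood test (edgeR 4.0.16, R 4.3.3), contrast blastocyst minus morula, Benjamini-Hochberg adjusted over all tested genes. The other groups entered the estimate of spread and the filter, which with the 8 control embryos alone kept 12689 genes. CPM values are counts scaled by the TMM library size, SDs are over embryos and SEs are of log2 changes. limma 3.58.1 on log2(TPM + 1), limma-voom and DESeq2 1.42.0 were alternatives. Exon lengths came from GENCODE on GRCm38 and matched 98.1% of tested genes by symbol; promoters came from RefSeq. The scripts were tested on simulated data.

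The comparison, the 42 gene lists and the naming rule were chosen with earlier results of these data known. Genes were named if called, not overlapping and of mean log2 CPM of at least 3 (15 largest rises and falls), if in a panel of 35, if leading a list by adjusted p or level, if among the 10 largest CPM gains or losses, or if at 0 in 1 stage and at 10 or more counts in every embryo of the other; the text gives part of these. Top2a, Anln and Cenpf were chosen after their values were seen. Counts carry no molecular identifiers, so floors cover counting error only. With 5 and 3 embryos, small changes of variable genes are not detectable. Some genes are not reported here.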

Additional observations from a re-analysis of the deposited data

Results flagged for a closer look

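For 9 of 157 measures over the 5 morulae, 1 morula stood far from the others, while chance alone flags about 1 in 20 measures. The deviating value was 4.23 CPM of Anxa6 in morula 5, against at most 0.0587 CPM in the others. For Cfap157 it was 7.55 CPM in morula 2, and for Eed 722 CPM in morula 2. Elovl6 was low in morula 3, at 177 CPM against 216 to 231 CPM. Eomes was at 9.29 CPM in morula 4, Hsp90b1 at 177 CPM and Pdgfra at 4.97 CPM in morula 2, and Idh3g at 667 CPM in morula 5. Xist was at 148 CPM in morula 5, the morula with no count of Ddx3y, Eif2s3y, Uty or Kdm5d, against at most 4.97 CPM in the other morulae. The part of this in any change named above was not tested beyond the counts without morula 5 and blastocyst 3.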

How the results depend on the processing

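The 1680 called genes (496 higher, 1184 lower) became 2546 with DESeq2 (1003 higher), 3520 on log2(TPM + 1) (2684 higher), 2786 on log2(TPM + 0.1) (1979 higher) and 3501 with a TPM of at least 1 in at least 3 units (2638 higher). limma-voom gave 805 higher, library totals 1212 higher and 677 lower, and the 8 control embryos alone 904 higher. Leaving out the 2 embryos with no Y-linked counts, an alternative added after the data were seen, gave 982 (195 higher, 787 lower). Leaving out 1 embryo at a time gave 1083 to 1524 in all, 242 to 429 higher and 835 to 1107 lower. The difference in mitochondrially encoded share was 0.211 percentage points, with a range of -0.113 to 0.574 when 1 embryo was left out. The causes of these shifts were not tested.

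Replicate numbers were not used to pair the samples. Same-numbered embryos had deviations correlated at 0.0037, 0.038 and -0.057, within the range of -0.058 to 0.092 of differently numbered embryos. So few pairs cannot show whether a batch or litter was shared. A replicate block on the 8 control embryos gave 1873 calls (610 higher, 1263 lower) against 2405 without it. With 0.196 and 0.202 CPM as the levels of 3 counts, genes under these levels could not be compared.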

Other observations

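Further genes that were high in morulae are given one by one. They were singled out after their values were seen and stand for no tested list. Dnaaf1, which assembles dynein arms, had 73.2, 46.3, 25.1, 70.8 and 26.9 CPM in morulae and 0.223, 3.03 and 3.42 CPM in blastocysts (log2 change -4.44 ± 0.79 (SE), adjusted p = 5.04e-04). Cfap43, a protein of the axoneme, had 10.3, 140.2, 26.0, 8.63 and 52.6 CPM in morulae and 0.223, 2.16 and 3.05 CPM in blastocysts (log2 change -4.71 ± 1.48 (SE), adjusted p = 0.0471), with morula 2 the highest. Cfap43 was not called when morula 2, 3 or 5 or any 1 blastocyst was left out (adjusted p from 0.0566 to 0.173). Cfap157 had 4.69, 7.55, 3.61, 3.66 and 3.88 CPM in morulae and 0 in all blastocysts, at least 23.2-fold lower than the mean of the morulae on a limit of 3 counts (adjusted p = 9.42e-04).

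Nppb, the brain natriuretic peptide, had 39.7, 29.0, 15.5, 73.1 and 15.9 CPM in morulae and 0, 2.56 and 1.53 CPM in blastocysts (log2 change -4.66 ± 1.33 (SE), adjusted p = 0.0306). Without morula 1 or 4 or any 1 blastocyst it was not called (adjusted p from 0.0508 to 0.124). Npy, neuropeptide Y, had 1.41, 1.39, 21.4, 24.3 and 3.13 CPM in morulae and 0 in every blastocyst, and Nppc, the C-type natriuretic peptide, had 2.46, 3.98, 2.23, 1.70 and 4.00 CPM and 0. Neither was called (adjusted p = 0.0944 and 0.0881), but Npy was called in 7 of 25 alternatives and Nppc in 6 of 24. Among the gains, Tubb5, a beta tubulin, had 311, 167, 352, 187 and 114 CPM in morulae and 1870.1, 1658 and 963 CPM in blastocysts, with all blastocysts above all morulae (log2 change 2.73 ± 0.48 (SE), adjusted p = 9.90e-04), and the metallothionein Mt1, which binds zinc and copper, had 729.5, 1692, 1192, 1055 and 688 CPM in morulae and 1803, 1987 and 3053 CPM in blastocysts (log2 change 1.09 ± 0.26 (SE), adjusted p = 0.00844). Mt1 was not called when blastocyst 3 was left out (adjusted p = 0.102).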
